A study of Mus musculus with 69 samples.

Results

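Expression of 8 genes that set or keep macrophage identity was followed in mouse bone marrow-derived macrophages (BMDMs), with and without treatment of the cells with interleukin-4 (IL-4). They were Spi1, Cebpa, Cebpb, Cebpd, Runx1, Maf, Zeb2 and Csf1r, taken by symbol as 8 of the 24537 genes listed in each expression table. BMDMs were grown from female mice with macrophage colony-stimulating factor and kept under basal conditions or given IL-4 at 20 ng/ml. The inbred strains C57BL/6J (C57), BALB/cJ (BALB) and NOD/ShiLtJ (NOD) are laboratory mice. The other strains were wild-derived, PWK/PhJ (PWK) from Mus musculus musculus and SPRET/EiJ (SPRET) from another species, Mus spretus. The 5-strain table held 29 libraries, 3 basal and 3 after 24 hours of IL-4 for each strain except PWK, which had 2 basal libraries. In a second table, C57 and SPRET cells were followed under basal conditions and 1, 6 and 24 hours after IL-4, in 16 libraries with 2 per group. A further 16 libraries, again 2 per group, covered the same times in Egr2 fl/fl cells (Egr2WT) and in LyzM-Cre Egr2 fl/fl cells (Egr2MKO). Cre from the LyzM locus acts in myeloid cells, and both groups carry the floxed Egr2 alleles, while only Egr2MKO carries Cre. Cells of C57xSPRET and C57xNOD F1 mice gave 8 libraries, 2 basal and 2 after 24 hours of IL-4 per cross.

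Spi1 encodes PU.1, an ETS factor that is required for the myeloid lineage and binds most macrophage enhancers together with C/EBP factors. Cebpa drives the myeloid progenitor stage, while Cebpb and Cebpd are C/EBP factors that respond to inflammatory and cytokine signals. Runx1 is needed for blood stem cell formation and acts with its partner CBFB. Maf (c-MAF) is a basic leucine zipper factor of mature macrophages, Zeb2 a zinc finger repressor that holds macrophage identity, and Csf1r the receptor for CSF1 and IL-34, on which macrophage survival depends. IL-4 acts through STAT6, which induces Egr2, a zinc finger factor of the late response.

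In mm10, Spi1 lies on chromosome 2 (91096678 to 91115759, plus strand), Cebpa on chromosome 7 (35119293 to 35121928, plus) and Cebpb on chromosome 2 (167688915 to 167690432, plus). Cebpd lies on chromosome 16 (15887286 to 15889545, plus), as does Runx1 (92601466 to 92697329, minus). Maf lies on chromosome 8 (115703253 to 115706894, minus) and Zeb2 on chromosome 2 (44983512 to 45113279, minus).

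Promoters of Cebpa and Runx1 are shown, because Cebpa was the member with lower expression in Egr2MKO at every time and Runx1 has a pair of start sites, of which the distal one lies outside the gene interval given above. The sequences are RefSeq promoters on GRCm38.p6, the assembly of mm10, spanning the start site, 5′ to 3′ on the strand of the gene. Capitals mark matches on either strand to GCGNGGGCG (EGR), GAGGAA (PU.1), TGTGGT (RUNX), TTGCNNAA (C/EBP), TTC and GAA with 4 bases between (STAT6) or TGCTGAC (MAF). RefSeq promoters were matched for 4 of the 8 members, Cebpa, Cebpb, Runx1 and Zeb2.
Cebpa, chr7:35119043-35119342, plus strand: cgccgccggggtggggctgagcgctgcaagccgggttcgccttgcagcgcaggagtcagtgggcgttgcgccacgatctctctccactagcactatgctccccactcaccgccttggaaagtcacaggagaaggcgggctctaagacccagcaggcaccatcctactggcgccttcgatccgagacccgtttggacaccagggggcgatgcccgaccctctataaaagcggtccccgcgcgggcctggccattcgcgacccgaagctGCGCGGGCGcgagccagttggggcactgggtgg
Runx1 distal, chr16:92826025-92826324, minus strand: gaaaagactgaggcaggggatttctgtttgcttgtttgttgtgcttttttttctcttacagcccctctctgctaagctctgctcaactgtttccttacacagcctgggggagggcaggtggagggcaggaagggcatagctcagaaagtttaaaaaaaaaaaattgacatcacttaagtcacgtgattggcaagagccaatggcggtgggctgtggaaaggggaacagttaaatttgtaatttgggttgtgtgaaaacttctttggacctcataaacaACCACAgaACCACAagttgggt
Runx1 proximal, chr16:92697280-92697579, minus strand: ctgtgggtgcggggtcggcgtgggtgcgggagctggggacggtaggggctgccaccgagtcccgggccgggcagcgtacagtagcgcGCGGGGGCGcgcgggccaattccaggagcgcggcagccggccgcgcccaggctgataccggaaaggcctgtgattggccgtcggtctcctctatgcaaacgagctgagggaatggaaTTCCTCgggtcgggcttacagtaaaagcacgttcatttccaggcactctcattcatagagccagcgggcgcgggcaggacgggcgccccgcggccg

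The Cebpa window held 1 EGR match, GCGCGGGCG, which begins 17 bases after the start, and no match to the other letters. The proximal Runx1 promoter held 1 EGR match and 1 PU.1 match, at -163 and -46 from the start, and the distal promoter held 2 RUNX matches, beginning 28 and 36 bases after it. No printed matches overlapped. Of 32851 mouse promoters of the same length, 5.55% held the EGR letters, 28.3% the PU.1 letters, 16.8% the RUNX letters, 10.8% the C/EBP letters, 6.95% the STAT6 letters and 4.67% the MAF letters. A match is a description of the letters and not a bound site.

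Expression is given as TPM, a transcript abundance per library, which is scaled for length and so can be set side by side on the TPM scale between genes of a library. The 3 tables were scaled separately, and levels are compared only within a table. Libraries held between 4690000 and 32900000 tags, and no counts per gene were used, so precision comes from the spread between libraries. Differences are on the log2(TPM + 1) scale with the standard error (SE) from limma, and a gene was called at an adjusted p under 0.05 over all genes tested. The labels do not say that replicates are separate animals, so p-values measure only the spread between these libraries. All 8 members passed the filter on low values in the 3 tables. Macrophage markers summed to between 10885 and 52687 TPM in every library, with Cd68 between 2456 and 4012 TPM in the 5 strains. Lyz2 alone held between 5278 and 25933 TPM there. Of the 7 markers, 5 reached 1 TPM in every library of the 5 strains, while Fcgr1 went down to 0.265 TPM and Mertk to 0.569 TPM. In the time course Fcgr1 went down to 0 TPM. Markers of B cells, stromal cells and erythroid cells summed to at most 0.407 TPM in any library of the 5 strains. T cell markers reached 1.51 TPM and dendritic cell markers 1.68 TPM. Mast cell and basophil markers reached 9.04 TPM in SPRET and 3.37 TPM in the other strains. In the time course, those markers reached 22.1 TPM in SPRET and 0.653 TPM in C57. Dendritic cell markers reached 7.83 and 0.564 TPM there, and T cell markers 6.06 and 1.57 TPM. Single genes reached 20.2 TPM for Mcpt8, 6.69 TPM for Zbtb46 and 6.06 TPM for Cd4 in the time course. No other gene of these lists exceeded 2.50 TPM there (Cpa3), and Cd3e reached 0.235 TPM and Flt3 0.082 TPM. The part of these cells was not tested. Neutrophil and precursor markers summed to between 543 and 596 TPM in PWK and between 249 and 404 TPM in SPRET, against at most 131 TPM in the other 3 strains. Those sums were S100a8 and S100a9 for the most part. The other genes of the list reached at most 12.3 TPM for Camp, 1.31 TPM for Elane, 0.834 TPM for Mpo and 0.276 TPM for Ly6g. With IL-4 the sums went from between 106 and 131 TPM to between 16.6 and 24.3 TPM in C57, and were also lower in every library after IL-4 than before in BALB (at most 19.8 against at least 53.0 TPM), NOD (at most 18.9 against at least 40.8 TPM) and SPRET, but not in PWK. Their part in the results was not tested. In bulk cells, fewer cells of a type and less RNA per cell cannot be told apart.

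The first comparison asked how basal expression of these genes differs between strains. SPRET had the highest basal level of Spi1, Cebpd, Maf and Csf1r, and NOD and PWK had the lowest Csf1r. Of 32 basal differences from C57 (8 members in 4 strains), 26 were called, 11 higher and 15 lower, which is 81.2% against 61.7% of all genes tested in these comparisons. Of these, 7 were past 2-fold, 21.9% against 13.3%. The members differed in how far the strains were apart, as the plot of expression by strain shows.

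**Figure D1:**
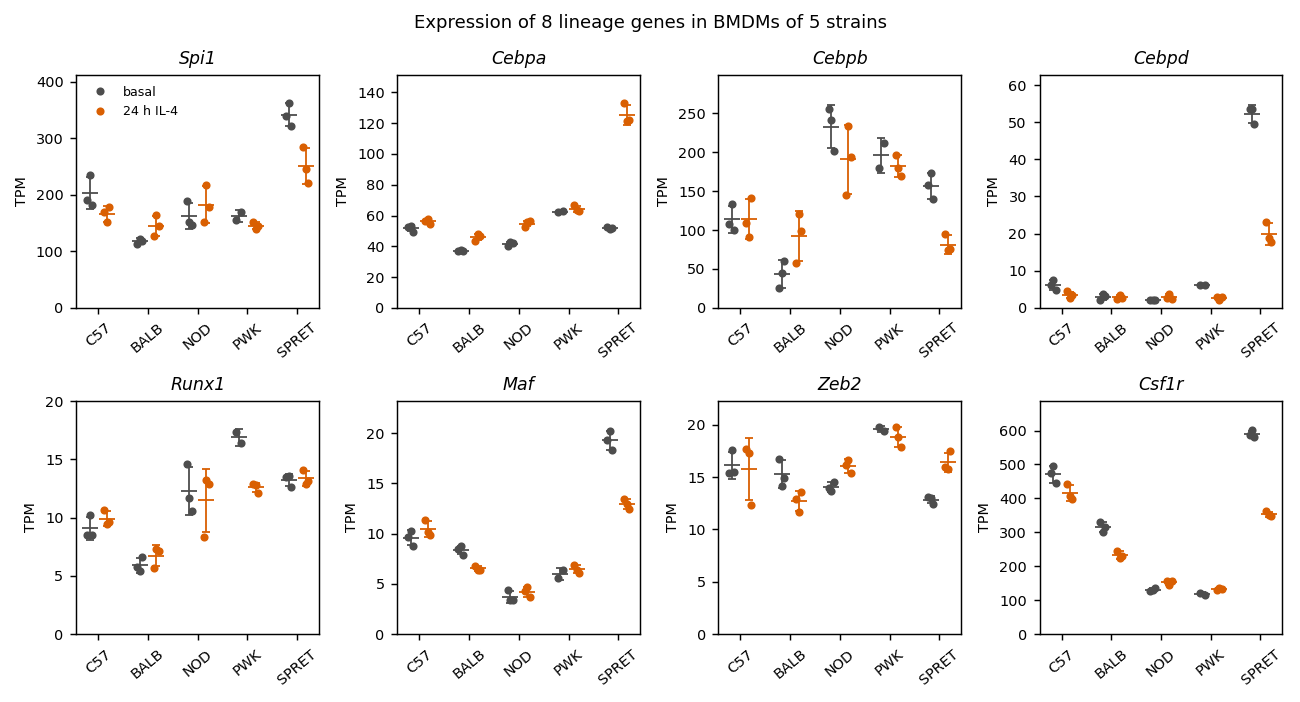
Expression in TPM (y axis) of the 8 genes in BMDMs of 5 strains (x axis), basal in grey and after 24 hours of IL-4 in orange. Points are libraries, and bars are the mean and SD. Cebpd stands at 52.1 TPM in basal SPRET and at most 6.22 TPM in the basal mean of the other strains, and Cebpa rises to 125 TPM in SPRET after IL-4.

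Cebpd, the C/EBP factor with the widest spread, was at 53.4, 53.5 and 49.4 TPM in the basal SPRET libraries. C57 had 6.12, 7.54 and 4.80 TPM and PWK 6.27 and 6.17 TPM, so no library of another strain came near SPRET. The difference between SPRET and C57 was 2.91 on the log2 scale (SE 0.17, adjusted p = 6.66e-14), and the highest strain mean was 23.9 times the lowest. BALB, at 2.99 TPM, and NOD, at 2.18 TPM, were both below C57, by 0.85 and 1.15 on the log2 scale, and were not called different from each other.

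Csf1r, on chromosome 18, had the highest level of the members in the basal libraries of C57, BALB and SPRET. It stood at 587, 601 and 581 TPM in SPRET, 474, 495 and 444 TPM in C57, and 332, 302 and 315 TPM in BALB. NOD libraries held 126, 132 and 137 TPM and PWK libraries 123 and 116 TPM. These 2 groups lay below every library of the other 3 strains. Against C57, Csf1r was lower by 1.83 in NOD (SE 0.05, adjusted p = 2.35e-20) and by 1.97 in PWK (SE 0.06, adjusted p = 6.42e-20), and higher by 0.32 in SPRET (SE 0.05, adjusted p = 3.11e-06).

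Maf followed Csf1r in part. Basal libraries held 19.3, 20.2 and 18.3 TPM in SPRET, 9.66, 10.3 and 8.80 TPM in C57, and between 3.39 and 4.39 TPM in the 3 NOD libraries. SPRET lay above C57 by 0.94 (SE 0.09, adjusted p = 4.72e-10) and NOD below it by 1.17 (SE 0.09, adjusted p = 8.33e-12). C57 and BALB, neighbours in the order, were not called different.

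Cebpb was lowest in BALB, at 25.6, 44.5 and 60.5 TPM, and highest in NOD, at 256, 241 and 202 TPM, with C57 at 108, 134 and 100 TPM. The libraries of each of these strains did not overlap with those of the others. BALB was lower than C57 by 1.44 (SE 0.24, adjusted p = 2.88e-05) and NOD higher by 1.03 (SE 0.24, adjusted p = 0.000535). The neighbours NOD and PWK, PWK and SPRET, and SPRET and C57 were not called different.

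Spi1, which encodes PU.1, was at 340, 363 and 322 TPM in basal SPRET and at 191, 236 and 182 TPM in C57, a difference of 0.75 (SE 0.12, adjusted p = 3.78e-06). BALB was lowest, at 113, 122 and 119 TPM. For Cebpa the order was PWK, SPRET, C57, NOD and BALB, with means from 62.5 to 37.2 TPM, and SPRET and C57 were not called different in this table. Runx1 ran from 16.9 TPM in PWK to 5.91 TPM in BALB. Zeb2 varied least, from 19.6 TPM in PWK to 12.8 TPM in SPRET.

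The deposited scaling bears on NOD. The median of all genes tested was 0.30 lower in basal NOD than in C57 on the log2 scale, and median-ratio scaling moved it to 0. Under that scaling, the lower Spi1 and Cebpa and the Zeb2 values in NOD turned to 0.08, 0.09 and 0.20 above C57, so no direction holds for these 3 genes in NOD.

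The second comparison asked how the members respond to 24 hours of IL-4 in each strain. SPRET moved most: 7 of the 8 members were called there, against 44.4% of all genes, and Runx1 was at 13.5, 13.6 and 12.6 TPM before and 14.1, 12.9 and 13.2 TPM after IL-4. Of the 40 responses, 20 were called, 8 higher and 12 lower, 50% against 34.6% of all genes tested. Past 2-fold were 4, 10% against 2.62%, namely Cebpa in SPRET, Cebpb in BALB, and Cebpd in PWK and SPRET.

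**Figure D2:**
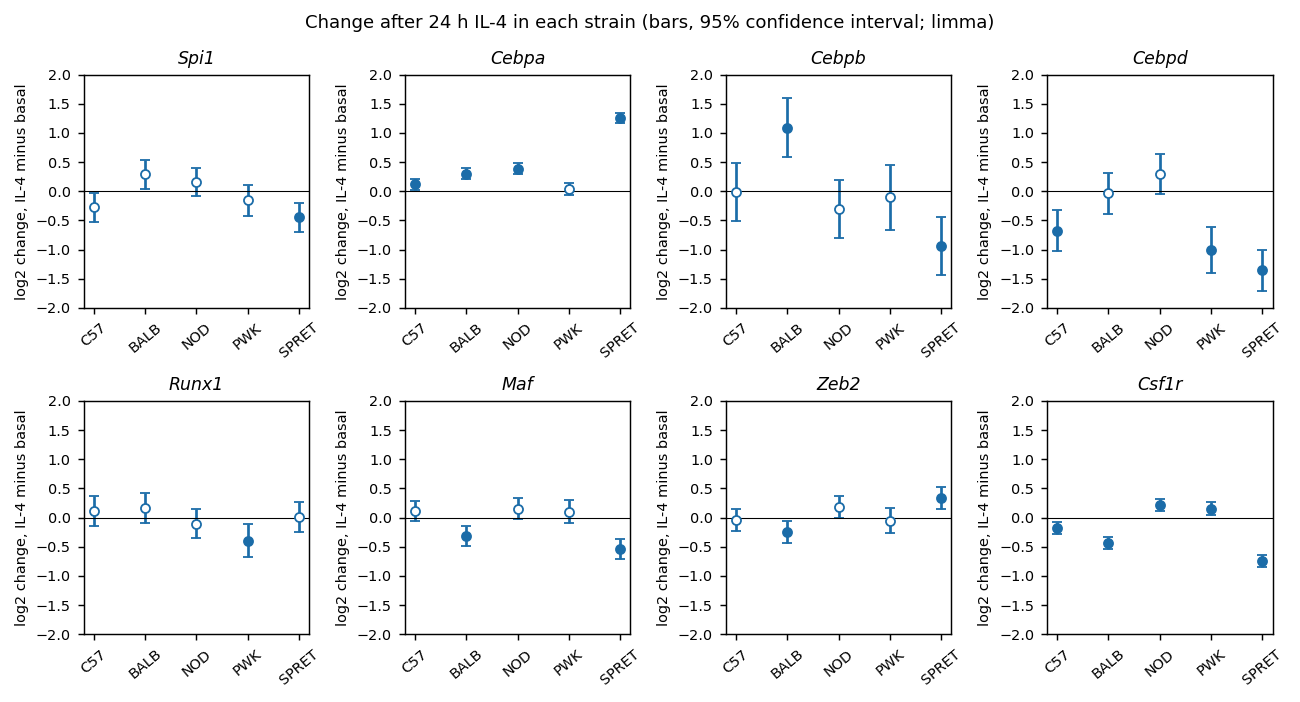
Change after 24 hours of IL-4 on the log2(TPM + 1) scale (y axis) in each strain (x axis), with 95% confidence intervals from limma. Filled points have an adjusted p under 0.05. Csf1r lies below 0 in C57, BALB and SPRET and above it in NOD and PWK, and Cebpa in SPRET lies at 1.26.

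Among the C/EBP factors, Cebpa in SPRET went from 52.5, 51.3 and 52.0 TPM to 133, 122 and 122 TPM, a rise of 2.42 times in the mean (log2 1.26, SE 0.04, adjusted p = 1.07e-17). Cebpa also rose in NOD, by 0.38 (adjusted p = 4.07e-07), in BALB, by 0.30 (adjusted p = 1.07e-05), and in C57, by 0.12 (adjusted p = 0.0372), where the call was lost in 5 of 12 alternatives. In PWK, the change was 0.04 (SE 0.05). The response of SPRET exceeded that of C57 by 1.13 (SE 0.06, adjusted p = 5.35e-13).

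Cebpd went the other way in SPRET, to 23.2, 18.8 and 17.7 TPM after IL-4. It fell by 1.36 on the log2 scale in SPRET (SE 0.17, adjusted p = 3.49e-07), by 1.01 in PWK (SE 0.19, adjusted p = 0.000234) and by 0.68 in C57 (SE 0.17, adjusted p = 0.00256), and was not called in BALB or NOD. In C57 it fell by 0.40 without replicate 2, which was not called (adjusted p = 0.103), nor was the fall with the compared groups alone (adjusted p = 0.0662). SPRET libraries after IL-4 still lay above every library of the other strains. Cebpb fell in SPRET, from 158, 173 and 140 TPM to 94.8, 74.3 and 75.1 TPM (log2 -0.94, SE 0.24, adjusted p = 0.00268). It rose in BALB, to 57.9, 121 and 99.1 TPM (log2 1.09, SE 0.24, adjusted p = 0.00117), although the BALB libraries overlapped. Without replicate 2, neither the SPRET change (log2 -0.81, adjusted p = 0.0657) nor the BALB change (log2 0.92, adjusted p = 0.0555) was called.

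Csf1r fell in SPRET to 362, 351 and 347 TPM (log2 -0.74, SE 0.05, adjusted p = 5.93e-12), in BALB to 245, 224 and 229 TPM (log2 -0.44, SE 0.05, adjusted p = 1.68e-07) and in C57 to 441, 407 and 398 TPM (log2 -0.18, SE 0.05, adjusted p = 0.00575). In NOD it rose to 157, 144 and 156 TPM (log2 0.21, SE 0.05, adjusted p = 0.00226), and in PWK to 129, 136 and 133 TPM (log2 0.15, SE 0.06, adjusted p = 0.0474). Median-ratio scaling brought the rises to 0.02 in NOD and 0.03 in PWK and ended both calls. The median of all genes moved by -0.14 in NOD under that scaling. The response differed from C57 in all 4 strains, by -0.56 in SPRET (adjusted p = 1.14e-06), -0.26 in BALB (adjusted p = 0.0137), 0.39 in NOD (adjusted p = 0.000178) and 0.33 in PWK (adjusted p = 0.00214). The BALB difference was not called under quantile normalization (adjusted p = 0.0569), with the compared groups alone (0.0819), or with replicate 1 (0.118) or replicate 3 (0.112) left out of every group. The PWK difference was not called without replicate 2 (log2 0.23, adjusted p = 0.199). The fall in C57 itself was not called without replicate 2 (log2 -0.13, adjusted p = 0.152) or with the compared groups alone (adjusted p = 0.0852), nor the rise in NOD without replicate 1 (log2 0.16, adjusted p = 0.0715).

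Maf fell in SPRET to 13.5, 12.9 and 12.5 TPM (log2 -0.54, SE 0.09, adjusted p = 1.37e-05) and in BALB from 8.44, 8.80 and 7.92 TPM to 6.83, 6.40 and 6.41 TPM (log2 -0.31, SE 0.09, adjusted p = 0.00626). The BALB fall was not called under median-ratio scaling or quantile normalization. Spi1 fell in SPRET, to 285, 247 and 221 TPM (log2 -0.45, SE 0.12, adjusted p = 0.00302), and Zeb2 rose there, to 16.0, 15.8 and 17.4 TPM (log2 0.33, SE 0.09, adjusted p = 0.00481), a call that quantile normalization ended (log2 0.18, adjusted p = 0.0620). Of 32 differences in response from C57, 16 were called, 50% against 26.2% of all genes tested, and 2 were past 2-fold, 6.25% against 2.42%. After IL-4, 20 of 32 differences in level from C57 were called, 62.5% against 61.5%, of which 5 were past 2-fold, 15.6% against 12.8%, so the members' share there was close to that of all genes.

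The time course asked when the changes begin in C57 and SPRET. Cebpb and Cebpa fell within 1 hour in both strains, as did Cebpd in SPRET (log2 -0.83, adjusted p = 0.0229). Maf had fallen by 6 hours in SPRET, and Csf1r fell mainly between 6 and 24 hours. Of 48 changes from basal, 20 were called, 7 higher and 13 lower, 41.7% against 23.3% of all genes tested, and 10 were past 2-fold, 20.8% against 3.47%. Differences in response between the strains were called in 11 of 24 tests, 45.8% against 14.1%, and 5 were past 2-fold, 20.8% against 3.14%. Neutrophil and precursor markers went from between 66.2 and 94.2 TPM to between 6.43 and 7.97 TPM at 24 hours in C57, and from between 67.8 and 73.6 TPM to between 71.8 and 91.7 TPM in SPRET, and their part was not tested. In level, SPRET and C57 differed in 22 of 32 tests, 68.8% against 62.1%, with 6 past 2-fold, 18.8% against 19.3%.

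**Figure D3:**
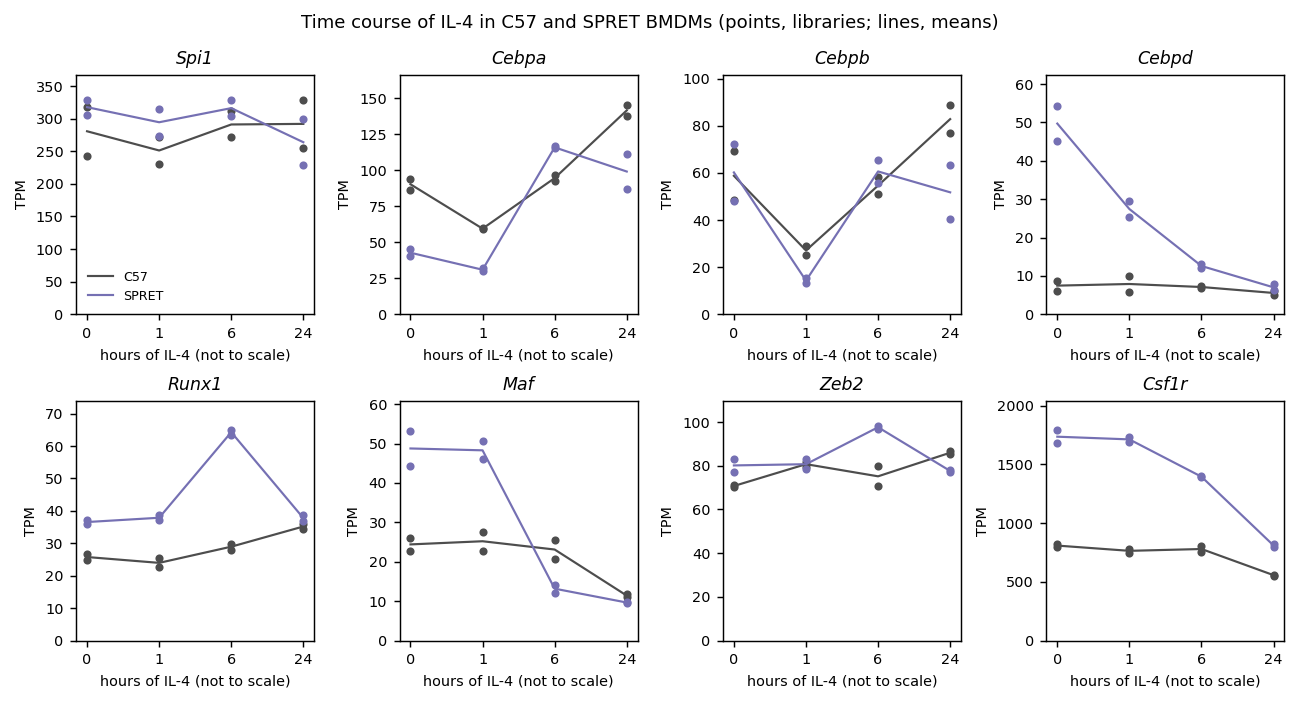
Expression in TPM (y axis) over hours of IL-4 (x axis, not to scale) in C57 (grey) and SPRET (purple) BMDMs. Points are libraries, 2 per group, and lines join means. Maf falls to 9.65 TPM in SPRET and 11.4 TPM in C57 at 24 hours, and the SPRET level of Csf1r is above that of C57 at each time in these libraries.

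Cebpb in SPRET went from 72.4 and 48.0 TPM to 15.4 and 13.2 TPM at 1 hour (log2 -1.98, SE 0.23, adjusted p = 7.35e-05), and stood at 55.8 and 65.4 TPM at 6 hours. In C57 it went from 48.4 and 69.1 TPM to 25.3 and 28.8 TPM (log2 -1.07, SE 0.23, adjusted p = 0.0181) and to 58.1 and 51.2 TPM at 6 hours. The rise from 1 to 6 hours was called in both strains, at 2.01 in SPRET and 0.99 in C57. The C57 fall lost its call in 6 of 25 alternatives, and the strains were not called different in this response (log2 -0.91, SE 0.32, adjusted p = 0.258).

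Cebpa fell at 1 hour in both strains, from 86.3 and 94.1 to 59.7 and 59.1 TPM in C57 (log2 -0.59, SE 0.09, adjusted p = 0.00211) and from 45.0 and 40.4 to 29.8 and 32.0 TPM in SPRET (log2 -0.45, SE 0.09, adjusted p = 0.00806). At 6 hours SPRET was at 115 and 117 TPM (log2 1.42 over basal, adjusted p = 2.01e-07), while C57 was at 96.3 and 92.7 TPM (log2 0.07, adjusted p = 0.686). C57 reached 138 and 145 TPM at 24 hours (log2 0.64, SE 0.09, adjusted p = 0.000157). The strain difference in response was 1.35 at 6 hours (SE 0.13, adjusted p = 3.76e-05).

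Maf stood at 53.2 and 44.4 TPM in basal SPRET, 50.6 and 46.0 TPM at 1 hour, 14.2 and 12.2 TPM at 6 hours and 9.66 and 9.64 TPM at 24 hours. In C57, it was at 22.7 and 26.1 TPM under basal conditions, 20.6 and 25.6 TPM at 6 hours and 10.96 and 11.86 TPM at 24 hours. The fall at 24 hours was 2.22 in SPRET (SE 0.13, adjusted p = 4.72e-08) and 1.03 in C57 (SE 0.13, adjusted p = 4.18e-05). In the 5-strain table, C57 libraries of Maf before and after 24 hours overlapped, with means of 9.59 and 10.5 TPM. The difference there was a rise of 0.11 (SE 0.09, adjusted p = 0.329). The C57 estimates thus had opposite signs, and only the fall in the time course was called.

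Cebpd fell in SPRET from 54.3 and 45.1 TPM to 29.4 and 25.4 TPM at 1 hour, 11.9 and 13.2 TPM at 6 hours and 6.24 and 7.77 TPM at 24 hours (log2 -2.66, SE 0.20, adjusted p = 6.07e-07). C57 libraries ranged from 4.93 to 9.85 TPM over all times, and no change was called. By 24 hours the strains were not called different (adjusted p = 0.238). Csf1r in SPRET went from 1677 and 1793 TPM to 1389 and 1399 TPM at 6 hours and 824 and 794 TPM at 24 hours (log2 -1.10, SE 0.05, adjusted p = 3.33e-09). In C57 it went from 822 and 795 TPM to 553 and 560 TPM at 24 hours (log2 -0.54, SE 0.05, adjusted p = 1.90e-06).

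Some differences between SPRET and C57 were not alike in the 2 tables. Csf1r at 24 hours was higher in SPRET by 0.54 in the time course (adjusted p = 5.70e-07) and lower by 0.23 in the 5-strain table (adjusted p = 0.000207). Basal Cebpa was lower in SPRET by 1.06 in the time course (SE 0.09, adjusted p = 7.48e-07) and at 0.01 in the 5-strain table. After 24 hours of IL-4, Cebpa was lower in SPRET by 0.52 in the time course (adjusted p = 0.000372). In the 5-strain table it was then higher in SPRET by 1.14 (adjusted p = 1.68e-17). Cebpd at 24 hours was at 0.29 in the time course (adjusted p = 0.238), against 2.23 in the 5-strain table. Basal Zeb2 was higher in SPRET by 0.18 in the time course (adjusted p = 0.0208) and lower by 0.30 in the 5-strain table (adjusted p = 0.00499). Basal Spi1 was at 0.19 in the time course (adjusted p = 0.328), against 0.75 in the 5-strain table. Some SPRET responses at 24 hours were called in the 5-strain table but not in the time course. There Cebpb changed by -0.22 (adjusted p = 0.505), Spi1 by -0.28 (adjusted p = 0.208) and Zeb2 by -0.04 (adjusted p = 0.609). The SPRET responses of Cebpa, Cebpd, Maf and Csf1r at 24 hours were called in the same direction in both.

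Runx1 rose for a time in SPRET, from 37.1 and 36.1 TPM to 63.5 and 65.1 TPM at 6 hours (log2 0.80, SE 0.07, adjusted p = 1.76e-06), and was at 37.0 and 38.6 TPM at 24 hours. In C57 it rose to 35.9 and 34.5 TPM at 24 hours from 24.8 and 26.8 TPM (log2 0.44, SE 0.07, adjusted p = 0.000240). Zeb2 changed by less, with a rise of 0.28 in SPRET at 6 hours and of 0.28 in C57 at 24 hours. No change of Spi1 was called in either strain, where libraries lay between 228 and 329 TPM.

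The Egr2 comparison asked which members depend on Egr2 in myeloid cells. Egr2 itself was at 23.6 and 21.3 TPM in basal Egr2WT, 82.0 and 75.6 TPM at 1 hour, 88.4 and 92.5 TPM at 6 hours and 101 and 99.5 TPM at 24 hours. In Egr2MKO it was at 0.859 and 0.854, 3.39 and 4.09, 3.10 and 5.23, and 4.72 and 7.05 TPM at the same times, below every Egr2WT library. Of 32 differences between Egr2MKO and Egr2WT, 21 were called, 16 higher and 5 lower, 65.6% against 20.2% of all genes tested. Past 2-fold were 2, both for Maf, 6.25% against 2.19%. Of 48 changes from basal in the 2 genotypes, 24 were called, 50% against 20.2%, with 2 past 2-fold, 4.17% against 2.9%. Of 24 differences in response, 3 were called, 12.5% against 4.58%, with 1 past 2-fold, 4.17% against 0.706%. At 24 hours neutrophil and precursor markers summed to between 10.7 and 16.1 TPM in Egr2MKO and between 19.1 and 21.0 TPM in Egr2WT, and their part was not tested.

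**Figure D4:**
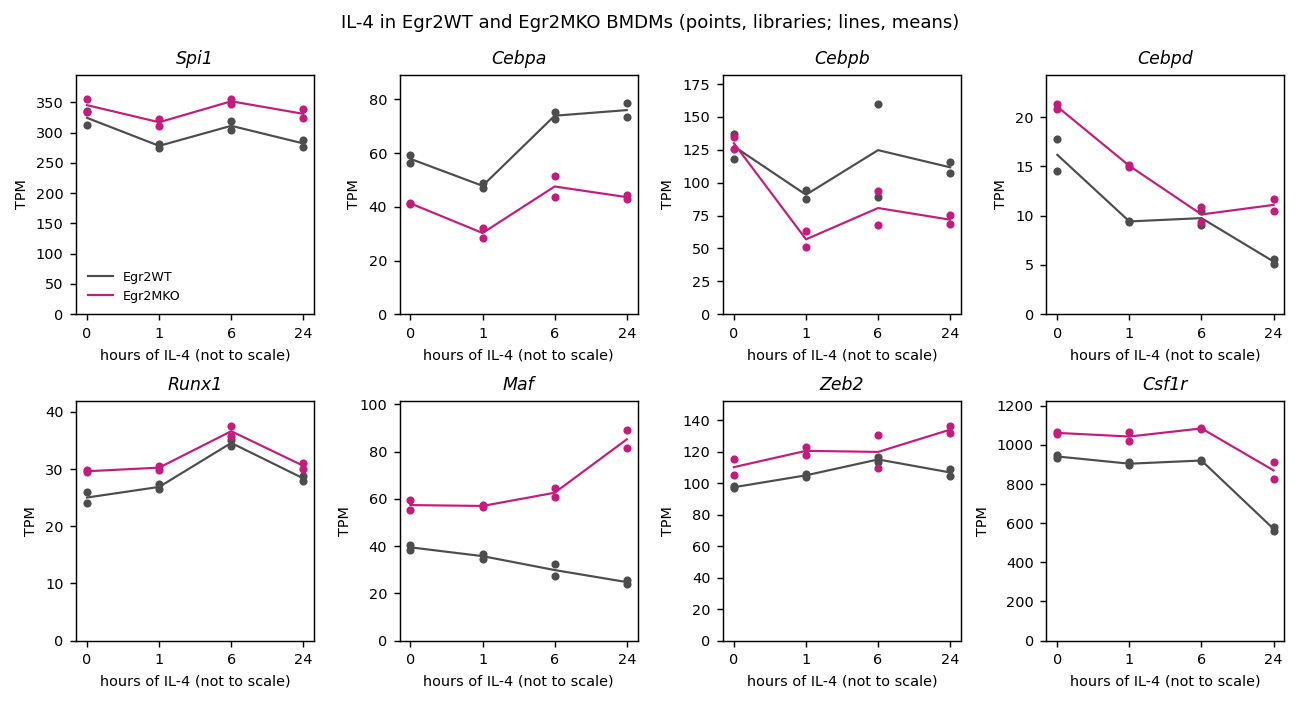
Expression in TPM (y axis) over hours of IL-4 (x axis, not to scale) in Egr2WT (grey) and Egr2MKO (pink) BMDMs. Points are libraries, 2 per group, and lines join means. Maf rises to 85.2 TPM in Egr2MKO and falls to 24.7 TPM in Egr2WT at 24 hours, and Cebpa is lower in Egr2MKO at each time.

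Maf fell in Egr2WT, from 40.6 and 38.3 TPM to 32.4 and 27.3 TPM at 6 hours and 23.9 and 25.6 TPM at 24 hours (log2 -0.65, SE 0.08, adjusted p = 5.63e-05). In Egr2MKO it rose, from 59.5 and 55.2 TPM to 60.8 and 64.4 TPM and then 81.4 and 89.0 TPM (log2 0.56, SE 0.08, adjusted p = 0.000198). The genotypes did not overlap at any time. The difference grew from 0.53 under basal conditions to 1.05 at 6 hours (adjusted p = 3.50e-06) and 1.74 at 24 hours (SE 0.08, adjusted p = 1.25e-08), and the responses at 24 hours differed by 1.21 (SE 0.11, adjusted p = 3.64e-05).

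Csf1r also fell less in Egr2MKO. Egr2WT libraries went from 933 and 949 TPM to 579 and 563 TPM at 24 hours, and Egr2MKO libraries from 1058 and 1066 TPM to 913 and 828 TPM. The fall was 0.72 in Egr2WT and 0.29 in Egr2MKO on the log2 scale, and the responses differed by 0.43 (SE 0.06, adjusted p = 0.000442). Cebpd stood at 5.57 and 5.13 TPM in Egr2WT at 24 hours and at 10.5 and 11.7 TPM in Egr2MKO, a difference of 0.93 (SE 0.11, adjusted p = 2.90e-05), while at 6 hours the genotypes overlapped (log2 0.05, adjusted p = 0.799). It was also higher in Egr2MKO under basal conditions, by 0.37 (adjusted p = 0.0446), and at 1 hour, by 0.62 (adjusted p = 0.00229). The responses of Cebpd at 24 hours differed by 0.56 (SE 0.15, adjusted p = 0.0293).

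Cebpa, whose promoter is printed above, was lower in Egr2MKO throughout. Basal libraries held 56.3 and 59.4 TPM in Egr2WT and 41.5 and 41.1 TPM in Egr2MKO (log2 -0.48, SE 0.08, adjusted p = 0.00172). At 24 hours they held 78.6 and 73.4 TPM and 44.4 and 42.8 TPM (log2 -0.79, SE 0.08, adjusted p = 8.86e-06). The responses at 24 hours were not called different (log2 -0.31, SE 0.11, adjusted p = 0.0933). Cebpb was not called under basal conditions, at 118 and 137 TPM in Egr2WT and 126 and 134 TPM in Egr2MKO. At 24 hours it was at 116 and 108 TPM against 75.4 and 68.3 TPM (log2 -0.63, SE 0.22, adjusted p = 0.0418), a call lost in 12 of 25 alternatives. At 1 hour, Cebpb and Cebpa changed by -0.48 and -0.27 from basal in Egr2WT, and neither was called. In Egr2MKO both falls at 1 hour were called, at -1.18 and -0.44. The genotypes were not called different in these responses.

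Spi1 was higher in Egr2MKO by 0.23 at 24 hours (SE 0.05, adjusted p = 0.00234), at 323 and 338 TPM against 288 and 276 TPM, and by 0.09 under median-ratio scaling (adjusted p = 0.210). The median of all genes at 24 hours was 0.12 higher in Egr2MKO as deposited. Zeb2 was higher by 0.32 at 24 hours (SE 0.07, adjusted p = 0.00330). Runx1 was called under basal conditions alone, by 0.24 (SE 0.05, adjusted p = 0.0149), and no difference between the genotypes in its response was called, at 1, 6 or 24 hours.

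F1 cells asked whether parental differences are carried by the alleles within shared cells. Values there are allele-weighted and have no test, and ratios are log2((C57 + 1)/(other + 1)). In C57xSPRET cells, 0 of the 8 members were past 2-fold on the same side in all 4 libraries, against 2.78% of 12259 genes with both alleles above 0. The parental difference of Cebpd, 2.91 in favour of SPRET under basal conditions, stood beside allele ratios of -0.53 and -0.25. Maf, at -0.94 between the parents, had ratios of 0.12 and 0.02, and Spi1, at -0.75, had -0.14 and -0.02. Cebpa after IL-4, at -1.14 between the parents, had -0.61 and -0.09. These parental values are from the table of all strains. In the time course, SPRET minus C57 was -0.52 for Cebpa at 24 hours (limma, adjusted p = 0.000372), the opposite direction. Basal Spi1 was at 0.19 there and not called (limma, adjusted p = 0.328). Basal Cebpd and Maf were higher in SPRET in both tables, by 2.59 and 0.97 in the time course. For Cebpa and Spi1 the parental difference is thus not settled.

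**Figure D5:**
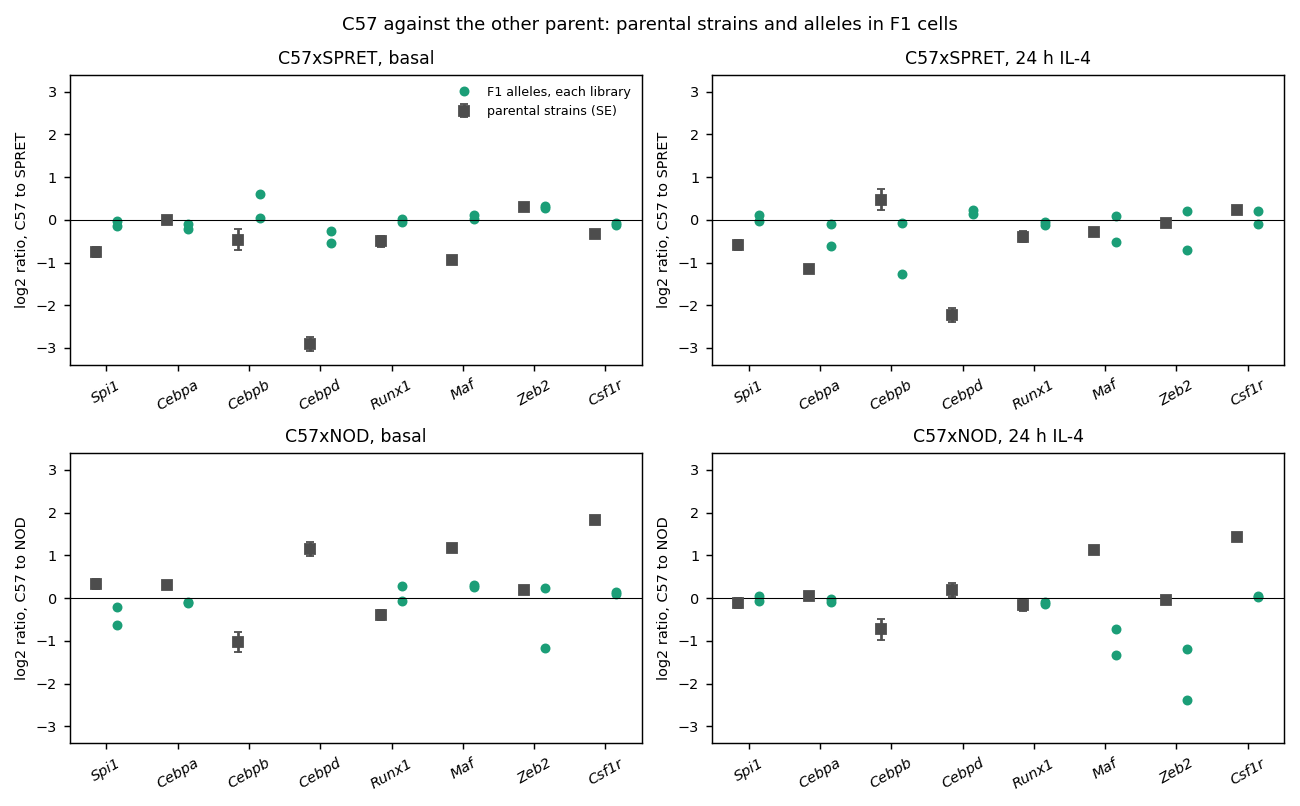
Log2 ratio of C57 to the other parent (y axis) for each gene (x axis), between parental strains (squares, with the SE) and between alleles in F1 cells (circles, 2 libraries per condition). Cebpd in C57xSPRET lies at -2.91 between basal parents and between -0.53 and -0.25 between alleles, and Csf1r in C57xNOD at 1.83 and between 0.10 and 0.15.

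In C57xSPRET cells, basal and IL-4 libraries did not overlap on either allele for Maf, Csf1r, Cebpa, Cebpd and Runx1. They overlapped on both alleles for Spi1, on the C57 allele for Cebpb and on the SPRET allele for Zeb2. For Maf, the C57 allele went from 249 and 173 to 22.4 and 27.5 and the SPRET allele from 229 and 170 to 21.1 and 39.9. For Csf1r, the C57 allele went from 859 and 970 to 539 and 527 and the SPRET allele from 942 and 1024 to 576 and 454. Cebpd and Runx1 were lower and Cebpa higher after IL-4 on both alleles. Over all genes, non-overlap was counted on the sum of both alleles, a different measure from the single alleles above. It held for 75.4% of the 12259 genes in this cross and for 45.8% of the 3231 genes in C57xNOD. A share for single alleles was not taken, so the members have no matching share over all genes.

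In C57xNOD cells, Cebpb and Cebpd were listed at 0 for both alleles in every library, and 0 of the other 6 members were past 2-fold on the same side in all 4 libraries, against 1.27% of 3231 genes. Csf1r, 1.83 higher in C57 than in NOD under basal conditions, had allele ratios of 0.10 and 0.15, and 0.02 and 0.04 after IL-4. Maf, 1.17 higher in C57, had ratios of 0.26 and 0.30 under basal conditions and -1.33 and -0.71 after IL-4. The C57 allele of Maf went from 86.6 and 139 to 26.6 and 46.9, and the NOD allele from 72.2 and 113 to 68.5 and 77.5. Zeb2 values in this cross were between 3.37 and 21.8, and its ratios ranged from -2.39 to 0.23.

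Relatives and partners of the members moved in both directions. The 8 members are not in these lists, so Cebpa, Cebpb and Cebpd are not counted in the C/EBP list, nor Spi1 in the ETS list. In SPRET after IL-4, where 44.4% of all genes were called, 5 of 20 tested genes for CSF1R ligands and signalling rose and 9 fell. Csf1, the ligand of CSF1R, rose by 3.13 on the log2 scale (SE 0.09, adjusted p = 5.48e-20) as Csf1r fell, and Fyn by 0.93. Of 20 other macrophage transcription factors, 9 rose and 6 fell, with Batf3 at 3.09 and Irf4 at 2.51. Among 14 ETS genes, 3 rose, with Etv3 at 1.71, and 3 fell, with Ets2 at -1.25. Of 5 other C/EBP genes, 2 rose, namely Cebpg and Ddit3, while among the members Cebpa rose and Cebpb and Cebpd fell. In the RUNX list 1 rose and 1 fell of 4, Cbfb and Runx3, and in the MAF and ZEB list 1 rose and 1 fell of 5, Maff and Mafk. Of 7 tested factors of other lineages 1 rose and 2 fell, with Lmo2 at -0.95. Macrophage identity genes fell more often than they rose, 10 against 6 of 20, with Cx3cr1 at -2.07 and Mrc1, the mannose receptor, at 2.09. Their median was -0.17, beside 0.11 over all genes.

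In Egr2MKO at 24 hours, where 37.4% of all genes differed from Egr2WT, Csf1 was lower by 1.57 (SE 0.11, adjusted p = 3.33e-07). The receptor, Csf1r, was higher at that time, so receptor and ligand differed in opposite directions. In the RUNX list 1 of 5 was higher and 2 lower, with Runx3 at -1.10. Of 15 ETS genes 7 were higher and 0 lower, while of 5 other C/EBP genes limma called 0 (0 at an unadjusted p under 0.05), against calls for all 3 C/EBP members at this time. For CSF1R ligands and signalling, 8 were higher and 3 lower of 20. Other macrophage transcription factors were lower in 9 and higher in 7 of 20, with Bhlhe40 at -1.49 and Id2 at -1.36. Of 7 factors of other lineages 3 were higher and 1 lower. Macrophage identity genes were higher in 9 and lower in 4 of 20, with Fcgr1, a receptor for IgG, at 2.67.

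In basal NOD against C57, where 74.2% of all genes were called, macrophage identity genes were lower in 16 and higher in 4 of 20, with Itgam at -2.29 and Cx3cr1 at -2.02. Lower and higher were 13 and 5 of 20 for CSF1R ligands and signalling, 11 and 7 of 20 for other macrophage transcription factors, 8 and 2 of 14 for ETS genes, and 3 and 1 of 7 for factors of other lineages. The other C/EBP genes held 2 higher and 2 lower of 5, and the RUNX list 1 and 2 of 4. The median of all genes in this comparison was -0.30, and that of the macrophage identity genes -0.65.

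Patterns were compared by Pearson's r over the 10 group means of the 5-strain table, across 11907 genes, as a description. The genes most like Csf1r were Mertk (r = 0.991) and Dnajc28 (0.985), and those most like Maf were Tnfaip8l2 and Fam98c (both 0.993). Cebpd was most like Ociad2 and Zcwpw1 (both 0.974), Spi1 like Ubtd1 (0.972) and Pik3r2 (0.959), and Runx1 like Noct (0.966) and Eif3g (0.953). Cebpb was most like Irf2bpl (0.959) and Ccdc107 (0.896), Cebpa like Ccdc86 (0.946) and Yrdc (0.942), and Zeb2 like Acy3 (0.953) and Zmym6 (0.934). Group means of a strain share its libraries, and the most similar genes of 11907 were picked by r. Among the members, the highest r were 0.912 for Spi1 and Cebpd and 0.877 for Maf and Csf1r.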

How the data were processed

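RNA-seq libraries of mouse BMDMs were analysed, 61 in 3 expression tables and 8 from F1 cells. The authors aligned the reads with STAR to the genome of each strain, moved positions to mm10 with MMARGE, and quantified genes with HOMER as TPM, which the deposited tables hold with total tags per library but no counts. Columns with the authors' own DESeq2 comparisons (fold change, p and its adjusted form) were left aside. The deposited F1 values are a score, namely expression weighted by the share of reads of each allele, and their depth is unknown. The human macrophage table was not analysed here. Where transcripts are scaled in a library, a few abundant genes can lower all others.

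A limma model per table (version 3.58.1, R 4.3.3) was run on log2(TPM + 1), with group means and variances moderated along the trend in expression. A gene entered when 2 or more libraries reached 1 TPM, which left 11907 genes for the strains, 12088 for the time course and 12079 for the Egr2 table. Benjamini-Hochberg adjustment covered every gene that entered, and a second count required more than 2-fold. Differences in response were interaction contrasts. The fits were tested on simulated data with known changes. The range of tags per library is given in the report, and with no counts per gene the precision rests on replicate spread. Replicates had a lowest Pearson r of 0.989 on the log2 scale, and no pair was counted as 1 library.

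The 8 members and the lists of related genes were chosen with earlier results of these data known. All 8 members are named, and of each list up to 2 genes with the largest change among those called, in the comparisons described. The list of MAF and ZEB relatives is given for a single comparison, and some of its results are not reported here. For each member the 2 genes with the highest Pearson r over group means are named. The fits were repeated with pseudocounts and filters changed, after median-ratio scaling or quantile normalization, on the compared groups alone, with a robust prior, with a replicate block and with libraries left out. Plots were made in Python 3.11.15 (matplotlib 3.10.9).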

Additional observations from a re-analysis of the deposited data

Results flagged for a closer look

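Differences in response that passed the test of the difference itself and 2-fold were the following. In the 5 strains, Cebpb responded more in BALB than in C57, by 1.10 on the log2 scale (SE 0.34, adjusted p = 0.0294). That call was lost when any of 6 single libraries was left out, with values from 0.77 to 1.08, and Cebpb libraries of BALB overlapped. These were BALB IL-4 replicates 2 and 3, BALB basal replicate 1, C57 IL-4 replicates 1 and 2 and C57 basal replicate 2. Cebpa responded more in SPRET than in C57, by 1.13 (SE 0.06, adjusted p = 5.35e-13).

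In the time course, Cebpa responded more in SPRET than in C57 at 6 hours, by 1.35 (SE 0.13, adjusted p = 3.76e-05). Cebpd differed by -1.85 at 6 hours (SE 0.29, adjusted p = 0.00121) and by -2.31 at 24 hours (SE 0.29, adjusted p = 9.08e-05), and Maf by -1.73 at 6 hours (SE 0.18, adjusted p = 5.77e-05) and -1.19 at 24 hours (SE 0.18, adjusted p = 0.000393). Between Egr2MKO and Egr2WT, the response of Maf at 24 hours differed by 1.21 (SE 0.11, adjusted p = 3.64e-05).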

How the results depend on the processing

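Of 103 called member results, 57 kept direction and call in every alternative, 45 lost the call in at least 1, and 2 reversed in at least 1. Under median-ratio scaling, the basal difference of NOD from C57 was 0.094 for Cebpa, 0.082 for Spi1 and 0.20 for Zeb2 (the last newly called, adjusted p = 0.0235), each against a negative value as deposited. The 16 called differences in response from C57 became 9 with no filter, and the 2 past 2-fold became 1 with no filter, with the compared groups only and with a robust prior. The 2 differences past 2-fold in Egr2MKO became 1 with a pseudocount of 5 TPM and with quantile normalization.

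With a replicate left out, counts ranged from 11 to 16 for responses in the 5 strains (2 to 5 past 2-fold), 20 to 25 for basal differences (6 to 8), 7 to 12 for differences in response (1 to 4), 18 to 20 in the time course (8 to 10) and 17 to 23 in Egr2MKO (1 to 3). In F1 cells the count ranged from 0 to 0 in C57xSPRET and from 0 to 1 in C57xNOD. The ranges for the 5 strains come from 3 fits, each without 1 replicate number in every group. Those for the time course and Egr2MKO come from 16 fits each, every one without a single library. The widths of these ranges therefore cannot be set side by side. Each of the 29 libraries of the 5 strains was also left out alone, an alternative chosen after seeing the data. The call for the Csf1r response in PWK was lost in 16 of these fits (0.11 to 0.20 on the log2 scale), and that for the Runx1 response difference between PWK and C57 in 20 (-0.55 to -0.46). With the replicate block, 20 responses, 26 basal differences, 15 differences in response, 21 changes in the time course and 20 differences in Egr2MKO were called. Residual correlations between libraries of the same replicate number lay between -0.14 and 0.33, and in no comparison were all above 0.1. The highest were those of BALB, at 0.33, 0.15 and 0.089, so whether BALB libraries are paired was not settled. The cause of these changes was not tested. Depth per gene is unknown, so low genes such as Cebpd rest on the spread of 2 or 3 libraries.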
